A study of Mus musculus with 16 samples.

Results

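The genes of the kappa and lambda antibody light chains were followed through 16 bulk RNA-seq libraries of mouse lamina propria cells. A gene was included if its Ensembl identifier mapped to a symbol that begins with Igkv, Igkj, Igkc, Iglv, Iglj or Iglc. This held for 178 of the 35647 genes in the table. They comprised 160 kappa variable genes (Igkv), 5 kappa joining segments (Igkj), the kappa constant gene Igkc, 3 lambda variable genes (Iglv), 5 lambda joining segments (Iglj) and 4 lambda constant genes (Iglc). The GENCODE M21 annotation lists 60 of the Igkv genes as pseudogenes. The kappa genes lie on chromosome 6 and the lambda genes on chromosome 16.

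The mice were labelled wild-type, were germ-free at the start, and carried a single bacterium, Bifidobacterium breve, for 5 weeks. One set of mice had received the wild-type strain of the bacterium (WT) and the other the Δchat strain, which the series describes as making no acetylcholine. There were 4 mice for each strain, and colon and ileum were sequenced from each, which gave 4 groups of 4 libraries: colon WT, colon Δchat, ileum WT and ileum Δchat. Cells were recovered between 40% and 80% Percoll and the labels name no sort, so each library mixes the cell types recovered. Age, sex and mouse strain are not given in the sources used here, and mice left germ-free were not analysed here. The deleted gene is bacterial, so no mouse gene of the table checks the strain labels.

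An antibody is built of paired heavy and light chains. A developing B cell joins 1 variable and 1 joining segment of the kappa or the lambda locus in front of a constant region, and its descendants keep that choice, so that the mix of variable genes in a tissue reflects which B cell families live there. Plasma cells, which secrete antibody, carry far more of these transcripts than resting B cells, and in the gut most of them make IgA. In the mouse the kappa locus is large and gives most light chains, while the lambda locus is small: Iglv2 is joined mainly to Iglc2, and Iglv1 to Iglc3 or Iglc1, according to their order on the chromosome.

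Several of these genes are close copies, which limits how well reads can be told apart, and their sequences are shown for that reason. The first set is a 90-base stretch near the start of the lambda constant regions, with capitals at the bases that differ from Iglc2. All sequences come from the GENCODE M21 transcripts (GRCm38) on the coding strand.
Iglc2: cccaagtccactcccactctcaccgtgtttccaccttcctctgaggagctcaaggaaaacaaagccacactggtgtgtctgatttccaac
Iglc3: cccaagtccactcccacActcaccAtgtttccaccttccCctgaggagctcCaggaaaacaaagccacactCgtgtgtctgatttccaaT
Iglc1: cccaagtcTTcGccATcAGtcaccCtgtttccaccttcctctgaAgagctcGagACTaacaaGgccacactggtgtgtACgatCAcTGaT
In this stretch Iglc3 differed from Iglc2 at 6 bases and Iglc1 at 21. Over the whole coding part Iglc2 and Iglc3 were 96.2% identical, Iglc1 and Iglc2 74.5%.

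The lambda variable genes Iglv1 and Iglv2 were 96.9% identical. Their last 120 coding bases, which end at the junction with the joining segment, follow with capitals where Iglv2 differs from Iglv1, at 4 bases.
Iglv1: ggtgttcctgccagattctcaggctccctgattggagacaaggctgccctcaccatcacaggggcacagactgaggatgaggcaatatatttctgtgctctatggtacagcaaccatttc
Iglv2: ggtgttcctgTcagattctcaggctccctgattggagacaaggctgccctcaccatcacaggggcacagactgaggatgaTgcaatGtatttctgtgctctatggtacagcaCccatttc

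The same 3′ stretch is shown for 3 kappa variable genes of subgroup 1 on which the usage and strain results turn, with capitals where they differ from Igkv1-110, the gene with the highest mean level.
Igkv1-110: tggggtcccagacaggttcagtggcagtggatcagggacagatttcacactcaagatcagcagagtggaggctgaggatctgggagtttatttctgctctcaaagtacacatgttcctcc
Igkv1-117: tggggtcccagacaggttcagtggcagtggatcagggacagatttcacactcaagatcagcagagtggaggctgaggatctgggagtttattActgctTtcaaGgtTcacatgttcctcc
Igkv1-135: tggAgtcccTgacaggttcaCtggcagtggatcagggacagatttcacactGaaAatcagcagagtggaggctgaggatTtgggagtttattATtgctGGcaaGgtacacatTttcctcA
Igkv1-117 differed at 4 of these bases and Igkv1-135 at 13. Igkv1-110 and Igkv1-117 were 97.2% identical over the coding part, and Igkv1-135 and its closest copy Igkv1-133 were 96.7% identical. How the estimated counts were divided between such copies was not tested, so each member of a near-identical pair is uncertain by itself.

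Igkv8-30, the other leading kappa variable gene, had no copy nearer than Igkv8-21 at 92.7%. Its end is shown with the codon of the conserved cysteine in capitals.
Igkv8-30: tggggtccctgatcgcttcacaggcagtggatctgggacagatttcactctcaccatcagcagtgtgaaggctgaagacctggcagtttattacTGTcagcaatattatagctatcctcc

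The libraries held between 15940467 and 23612561 estimated counts, of which 199604 to 1391860 were light chain counts. No count at all was found in any library for 45 of the 178 genes (39 Igkv, 1 Igkj and 5 Iglj). A mean level of at least 1 CPM, which is here the count scaled to the total of the library alone, was reached by 97 genes and of at least 100 CPM by 34. The CPM values given below were also scaled by the TMM method over the 16 libraries. Summed markers of plasma cells and of B cells were present in every library. The summed CPM of 10 epithelial markers lay between 45.5 and 417 in 15 libraries and at 3369 in the library of colon Δchat mouse 3, which stands apart in that respect. No library was a copy of another.

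Light chain genes took a smaller share of the counts in mice with Δchat bacteria than in mice with WT bacteria, in colon and in ileum, and a larger share in ileum than in colon. In colon WT the share was 2.09, 3.53, 2.18 and 3.29% in mice 1 to 4, with a mean of 2.77% ± 0.742 (SD, n = 4). In colon Δchat it was 1.25, 1.402, 1.52 and 1.07%, with a mean of 1.31% ± 0.196 (SD, n = 4). No Δchat library of colon reached the lowest WT library.

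In ileum WT the light chain share was 4.59, 6.76, 4.17 and 4.84%, with a mean of 5.09% ± 1.15 (SD, n = 4). In ileum Δchat it was 4.12, 2.52, 3.31 and 3.81%, with a mean of 3.44% ± 0.701 (SD, n = 4). Here too the strains did not overlap, although the highest Δchat and the lowest WT library were close. In each tissue the exact two-sided permutation test gave p = 0.0286, the smallest that 4 libraries against 4 allow, and 0.131 after Benjamini-Hochberg adjustment over the 32 tests of 8 light chain measures in 4 comparisons. The strain difference thus does not pass the adjusted threshold of 0.05 in either tissue. The difference between ileum and colon, 2.22 percentage points on average over the strains, had an exact permutation p = 0.00041 (adjusted p = 0.0044) and was present in 8 of 8 mice.

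**Figure D1:**
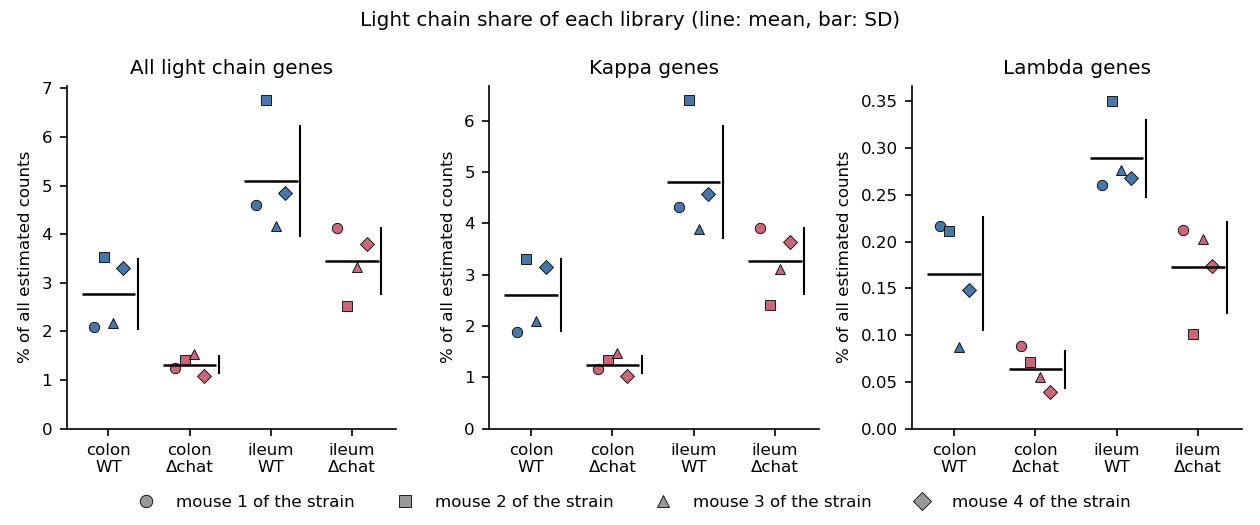
Share of all estimated counts (%, vertical axis) held by all light chain genes, by kappa genes and by lambda genes in each library of the 4 groups. Points are libraries, with a marker shape for each mouse of a strain, lines are means and bars are SDs of 4 libraries. In the panel of all light chain genes the colon Δchat points lie below all colon WT points (highest 1.52% against lowest 2.09%), and the ileum points lie higher than the colon points of the same mice.

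When the mouse was kept as a block by flipping the signs of the 8 within-mouse differences, the ileum and colon difference had the smallest exact p that 8 mice allow, 0.0078, with an adjusted p of 0.0833. The strain effect on the share did not differ detectably between the tissues (difference −0.19 percentage points, exact permutation p = 0.714, adjusted p = 0.879). This test was on percentage points. As a ratio, the mean share with Δchat was 0.473 of that with WT in colon and 0.676 in ileum, which was not tested. In bulk libraries, fewer antibody-secreting cells and less light chain RNA per cell cannot be told apart. The p-values for the strain measure the spread between the mice of this one experiment. Those for the tissue, unless the mouse is named as a block, treat colon and ileum libraries of the same mice as independent.

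Kappa genes made up most of this. In colon their share was 2.61% ± 0.728 with WT and 1.25% ± 0.192 with Δchat bacteria, without overlap. In ileum it was 4.802% ± 1.11 and 3.27% ± 0.659, where the highest Δchat library passed the lowest WT library (SD, n = 4 each). Lambda genes held 0.166% ± 0.061 and 0.0634% ± 0.021 in colon, with overlap, and 0.289% ± 0.042 and 0.172% ± 0.050 in ileum, without overlap. Exact permutation p for the strain was 0.0286 for kappa in colon and lambda in ileum and 0.0571 for kappa in ileum and lambda in colon (adjusted p = 0.131 and 0.203). Both classes were higher in ileum, each in 8 of 8 mice (exact permutation p = 0.00041, adjusted p = 0.0044). With the mouse as a block, each had the smallest exact p that 8 mice allow, 0.0078, and an adjusted p of 0.0833. This does not pass, although no smaller exact p was possible.

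Markers of plasma cells moved with these shares. The summed CPM of 12 plasma cell markers ran in colon from 7065 to 12829.7 with WT and from 3753 to 5042 with Δchat, and in ileum from 13634 to 24028 with WT and from 9098 to 14721 with Δchat. With WT bacteria Jchain and Mzb1 took most of this sum. Together with Pigr, not one of the 12, they averaged 8514 CPM in colon WT and 15377 CPM in ileum WT. The 12 markers averaged 9712 and 17143 CPM there. All 12 had a log2 fold change below 0 for Δchat against WT in colon and 11 of 12 in ileum, none passing the edgeR test in either tissue. The 11 B cell markers went another way between tissues: their sum was 2567 to 4630 CPM in colon WT against 660 to 1348 CPM in ileum WT, where all 11 were lower in ileum at an edgeR adjusted p under 0.05. With Δchat the B cell sums overlapped between tissues (1759 to 3130 CPM in colon, 464 to 2185 CPM in ileum) and 2 of 11 were called lower. Between strains none of the 11 was called, with 10 below 0 in colon and all 11 above 0 in ileum. Of 10 germinal centre markers none was called between strains, with 9 below 0 in colon and all 10 in ileum. Over all genes 49.0% and 46.8% were below 0. The germinal centre sums overlapped between strains in both tissues. Epithelial markers were 45.5 to 204 CPM in colon WT and 240 to 3369 CPM in colon Δchat. Without colon Δchat mouse 3, whose epithelial sum was the highest, the strain difference of the light chain share in colon was −1.53 percentage points, against −1.46 with it. Of 10 macrophage markers 9 were called higher in ileum with either strain, and their sum in colon was 301 to 416 CPM with WT and 390.5 to 806 CPM with Δchat. Of 10 T cell markers 8 with WT and 7 with Δchat were called higher in ileum. Over all genes, 13.7% were called higher and 15.1% lower in ileum with WT, and 8.31% and 5.03% with Δchat. The sum of 8 stromal markers in ileum was 4048 to 6489 CPM with WT and 1141 to 6377 CPM with Δchat. The part of these cell types in the light chain differences was not tested.

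Measures of composition, which do not depend on the total of light chain counts, showed no difference that passed a test. The log2 ratio of light to heavy chain constant region counts in colon was −1.35 ± 0.068 with WT and −1.35 ± 0.084 with Δchat bacteria. In ileum this log2 ratio was −1.396 ± 0.012 with WT and −1.43 ± 0.092 with Δchat (SD, n = 4 each). Light chains made up 32.0 to 36.1% of all immunoglobulin counts of a library, and Igkc 55.5 to 61.0% of light chain counts. The log2 ratio of summed Igkv to Igkc counts had means of −0.74 and −0.66 in colon and of −0.70 and −0.68 in ileum, with WT and Δchat bacteria in that order. No difference between strains or tissues in these ratios passed the exact permutation test, with adjusted p between 0.327 and 0.944. The smallest of these belonged to the light to heavy ratio, which was 0.06 lower in ileum on the log2 scale, with 1 of 8 mice higher in ileum.

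Igkc, the constant region of every kappa chain, was the most abundant light chain gene. Its level was 11306, 20530.1, 12390.4 and 19892 CPM in colon WT mice 1 to 4 and 6451, 7707, 8469 and 5798 CPM in colon Δchat. In ileum it was 28026, 46636, 25502 and 29924 CPM with WT and 25106, 15276, 19454 and 22223 CPM with Δchat bacteria. The strains did not overlap in either tissue, and in ileum the closest libraries lay at 25502 and 25106 CPM. On the scale of CPM per kilobase of transcript, which allows genes to be compared, Igkc averaged 35795 against 838 for Iglc1, 697 for Iglc2 and 458 for Iglc3.

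The log2 fold change of Igkc for Δchat against WT was −1.16 (SE 0.234) in colon and −0.69 (SE 0.230) in ileum. Neither passed the edgeR quasi-likelihood test with Benjamini-Hochberg adjustment over all genes (adjusted p = 0.204 and 0.324). DESeq2 called it in colon (adjusted p = 0.000126) and not in ileum. Igkc was higher in ileum than in colon, by 1.02 in log2 with WT (SE 0.240, edgeR adjusted p = 0.0072) and by 1.53 with Δchat (SE 0.242, adjusted p = 0.0012), and both calls were kept in all 23 alternatives tried.

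Among the lambda constant genes, Iglc2 separated the strains in both tissues. Its level was 370.2, 254.7, 197 and 348 CPM in colon WT and 119, 161, 93.0 and 83.2 CPM in colon Δchat. In ileum it was 495, 958, 739 and 506 CPM with WT and 253, 132, 181 and 218 CPM with Δchat. Every Δchat library was thus below every WT library of the same tissue. The log2 fold change was −1.34 in colon (SE 0.259, edgeR adjusted p = 0.178) and −1.81 in ileum (SE 0.271, adjusted p = 0.0794), neither of which passed. DESeq2 called Iglc2 lower in colon (adjusted p = 9.1e-05). It was called lower in ileum by DESeq2 (adjusted p = 1.66e-08) and in 1 fit over all 16 libraries with edgeR (adjusted p = 0.021).

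Iglc1 had a level of 215 to 629.9 CPM in colon WT and 72.4 to 264 CPM in colon Δchat, which overlapped. In ileum it ranged from 412 to 602 CPM with WT and from 266 to 716 CPM with Δchat, so that the highest library of that tissue was a Δchat library. Iglc3 in colon was 41.5 to 267 CPM with WT and 28.5 to 80.6 with Δchat, and in ileum 284 to 560.1 with WT and 68.9 to 421 with Δchat. The log2 fold changes for the strain were −1.46 and −0.18 for Iglc1 and −1.32 and −0.68 for Iglc3 in colon and ileum, and none passed the edgeR test (adjusted p between 0.324 and 0.859), while DESeq2 called Iglc1 in colon (adjusted p = 0.0213). Iglc4 held at most 0.2 CPM in any library. Since Iglc2 and Iglc3 are near copies, their sum was also read: it was 238 to 521 CPM with WT and 122 to 242 with Δchat in colon, which overlapped, and 790.2 to 1519 with WT and 201 to 655 with Δchat in ileum, which did not.

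Among the lambda variable genes, Iglv2 showed the widest gap between strains. It reached 166, 56.1, 56.7 and 172 CPM in colon WT against 7.1, 51.6, 9.4 and 5.3 CPM in colon Δchat. In ileum it reached 228, 661, 638 and 365 CPM with WT against 28.6, 27.5, 75.8 and 62.7 CPM with Δchat. The groups did not overlap in either tissue, but colon Δchat mouse 2 lay close to the lower WT libraries. The log2 fold change was −2.61 in colon (SE 0.854, edgeR adjusted p = 0.327) and −3.29 in ileum (SE 0.501, adjusted p = 0.0876). Without colon Δchat mouse 2 the value in colon was −3.94 (adjusted p = 0.241). In ileum it was called by DESeq2 (adjusted p = 6.86e-12) and by edgeR without ileum Δchat mouse 3 (adjusted p = 0.0394).

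Iglv1, the main lambda variable gene, was 282 to 928 CPM with WT and 148 to 369 with Δchat in colon, and 801 to 1315 and 467 to 1031 CPM in ileum, with overlap in both tissues. Its log2 fold change for the strain was −1.37 in colon and −0.44 in ileum (edgeR adjusted p = 0.313 and 0.552). Within the Iglv counts, Iglv2 took 16.6, 32.7, 43.3 and 24.9% in ileum WT and 2.6, 5.3, 7.5 and 7.5% in ileum Δchat. In colon it took 16.8, 5.4, 15.5 and 24.3% with WT and 1.8, 17.7, 4.1 and 3.3% with Δchat, where the groups overlapped through Δchat mouse 2 and WT mouse 2. This share was singled out after its values were seen and is given as a description, with no test. The sum of the near copies Iglv1 and Iglv2 was 1262 to 1976 CPM with WT and 495 to 1059 with Δchat in ileum, and 339 to 984 and 153 to 376 CPM in colon, where the strains overlapped.

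Iglv3, the more distant lambda variable gene, stood at 54.1, 46.4, 26.4 and 19.4 CPM in colon WT and at 6.0, 9.1, 9.4 and 7.4 CPM in colon Δchat. These groups did not overlap (log2 fold change −2.18, SE 0.331, edgeR adjusted p = 0.135, DESeq2 adjusted p = 4.02e-08). In ileum its range was 12.2 to 107.7 CPM with WT and 15.0 to 42.6 CPM with Δchat, where the groups overlapped.

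**Figure D2:**
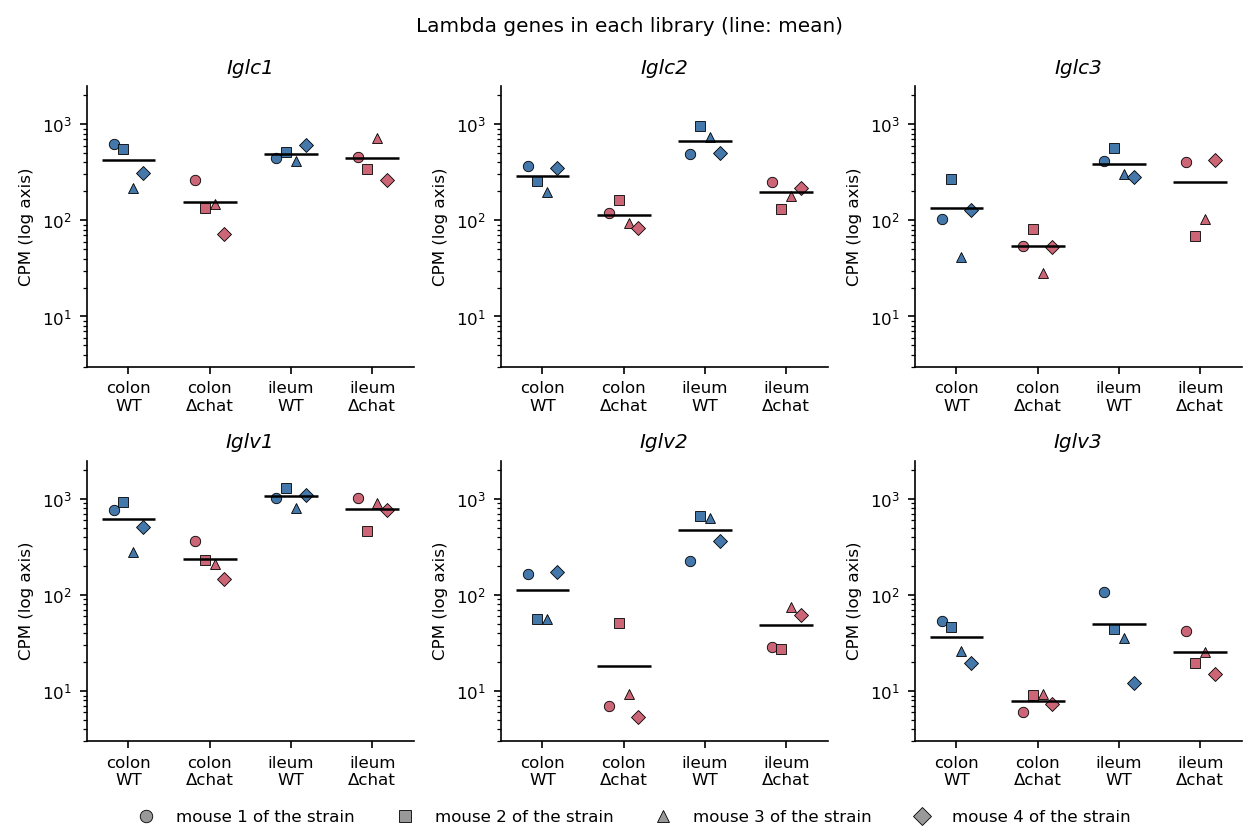
Level of 3 lambda constant and 3 lambda variable genes in CPM (vertical axis, logarithmic) in each library of the 4 groups. Points are libraries, marker shapes are the mice of a strain and lines are means. For Iglc2 and Iglv2 the Δchat points lie below the WT points within each tissue, while for Iglc1 in ileum the points of both strains interleave between 266 and 716 CPM.

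The percentage of lambda among light chain constant region counts overlapped between the strains. In colon it was 5.30 ± 2.47 with WT and 4.39 ± 1.47 with Δchat, and in ileum 4.66 ± 0.517 and 4.12 ± 0.615 (SD, n = 4 each), with exact permutation p of 0.571 and 0.257 for the strain in colon and ileum (adjusted p = 0.818 and 0.588). The lambda constant genes were mixed differently from mouse to mouse. Iglc1 held 71.5% of Iglc counts in the ileum of Δchat mouse 3 and 29.3% in that of Δchat mouse 4, whose leading gene was Iglc3 at 46.5%. Iglc2 held 36.4 to 50.9% in ileum WT and 18.1 to 24.4% in ileum Δchat, which did not overlap. In colon the ranges were 23.7 to 44.0% and 27.3 to 42.9%, which did.

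Joining segments could hardly be read as genes of their own. Their rows held at most 4 counts in any library, and the segments themselves are only 38 to 39 bases long for kappa, as the sequences show, with capitals at the TTCNG letters that encode the conserved phenylalanine of the joining region.
Igkj1: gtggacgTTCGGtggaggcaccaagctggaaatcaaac
Igkj2: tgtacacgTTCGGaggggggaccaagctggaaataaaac
Igkj3: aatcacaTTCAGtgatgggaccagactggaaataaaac
Igkj4: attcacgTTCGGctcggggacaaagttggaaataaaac
Igkj5: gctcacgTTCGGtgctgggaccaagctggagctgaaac
Igkj3 is regarded as nonfunctional and differs from the others in that motif. No joining segment passed the filter on low counts, so their use was not analysed here.

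Kappa variable genes were led by a small set. A count in every library was found for 82 of 160 Igkv genes and a count in any library for 121, while the pseudogenes summed to between 0.0108 and 0.0713% of Igkv counts. The 12 Igkv genes with the highest mean CPM held 49.1 to 69.6% of the Igkv counts of a library (median 59.7%), and 5 to 9 genes made up 50% of them. The same 12 genes came first per kilobase of transcript. Igkv1-110 led in 9 libraries and Igkv8-30 in 5, and the colon of WT mouse 2 was led by Igkv14-111 and that of WT mouse 3 by Igkv10-96.

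Igkv1-110 was high everywhere, with 9.3 to 24.0% of Igkv counts (median 15.8%). Igkv8-30 varied far more, from 0.985% in the ileum of Δchat mouse 2 to 22.2% in the colon of Δchat mouse 1. Igkv14-111 ran from 0.604 to 16.3%, Igkv5-48 from 0.497 to 10.3% and Igkv2-137 from 0.643 to 11.03%. The remaining 7 of the 12, Igkv1-117, Igkv10-96, Igkv1-135, Igkv6-15, Igkv6-23, Igkv8-27 and Igkv5-43, had medians between 1.31 and 4.91% and none exceeded 13.3% in any library.

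Some genes stood out in both tissues of the same mouse. Δchat mouse 2 used Igkv8-30 for 1.48% in colon and 0.985% in ileum, the 2 lowest values of all, and Igkv2-137 for 9.51 and 11.03%, the 2 highest. Igkv1-122, a near relative of Igkv1-110 that was singled out after its values were seen, took 3.67 and 5.16% in that mouse and at most 0.995% in any other library. WT mouse 4 used Igkv8-30 for 21.0 and 17.7% in colon and ileum, and Δchat mouse 1 for 22.2 and 18.6%. Igkv8-27 took 3.78 and 6.27% in WT mouse 4 and at most 0.942% in the other WT libraries, and it also reached 6.33% in the ileum of Δchat mouse 1.

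**Figure D3:**
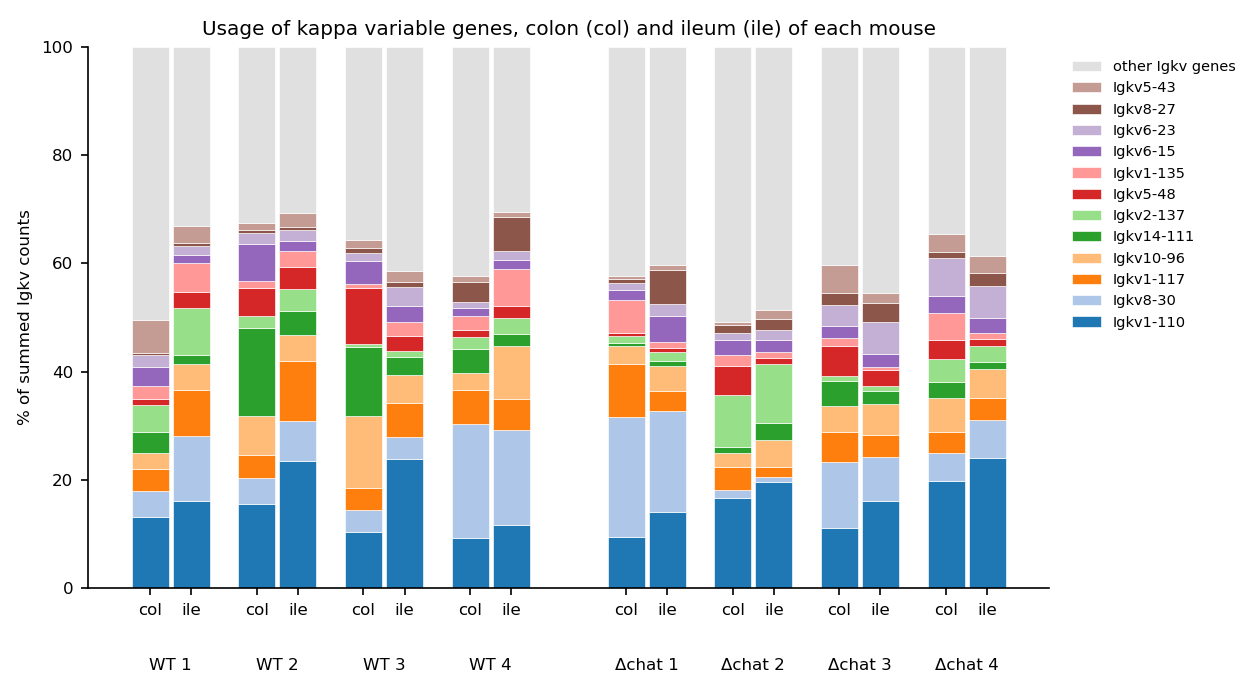
Usage of kappa variable genes as percent of the summed Igkv counts (vertical axis) in colon (col) and ileum (ile) of each mouse, stacked for the 12 Igkv genes with the highest mean CPM, with all other Igkv genes in grey. The pale blue band of Igkv8-30 is wide in both tissues of WT mouse 4 and Δchat mouse 1 (17.7 to 22.2%) and nearly absent in both tissues of Δchat mouse 2 (0.985 and 1.48%).

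The overlap of usage between 2 libraries, taken as the sum over Igkv genes of the smaller of both shares, had a median of 69.4% between colon and ileum of the same mouse (64.1 to 77.6%, 8 pairs). It had a median of 58.4% between colon and ileum of different mice of a strain (48.3 to 69.8%, 24 pairs) and of 59.8% between mice of different strains (48.4 to 73.1%, 32 pairs). The ranges overlapped. In 5 of 8 mice the ileum overlapped most with its own colon, and in 5 of 8 the colon with its own ileum. The exceptions included WT mice 1 and 3, whose ileum libraries each ranked 4 colons of other mice above their own. These values share libraries and are given as a description.

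**Figure D4:**
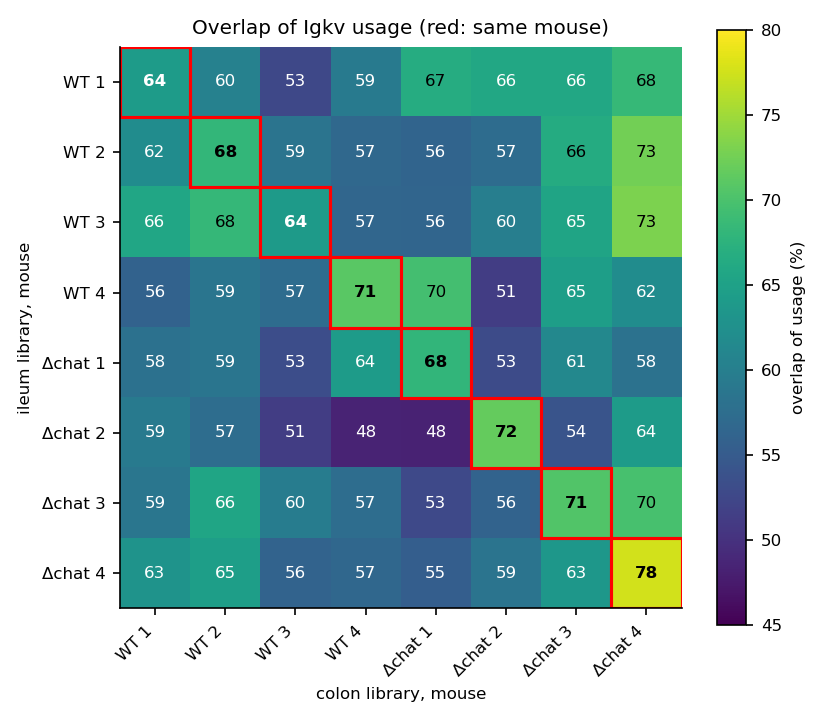
Overlap of Igkv usage (%, colour and numbers) between each ileum library (rows) and each colon library (columns), with the same mouse outlined in red on the diagonal. The diagonal runs from 64.1 to 77.6%, while Δchat mouse 2 shares as little as 48.3% with the colon of another mouse.

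Measures of diversity overlapped between the strains. The effective number of Igkv genes, the exponential of the Shannon entropy of usage, was 27.9 ± 5.51 with WT and 27.4 ± 2.62 with Δchat in colon, and 26.2 ± 2.37 and 29.02 ± 2.94 in ileum (SD, n = 4 each). The share of the leading gene was 15.97% ± 3.68 and 17.7% ± 4.23 in colon and 20.3% ± 3.97 and 19.6% ± 3.31 in ileum. Exact permutation p for these measures lay between 0.1204 and 0.981 over the 4 comparisons, and the adjusted p between 0.350 and 0.981.

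Turning to single genes, no light chain gene passed the edgeR test for the strain in colon, where 91 of the 178 members were tested, against 1 of 14660 genes (0.00682%) called higher and none called lower in the whole table. A p under 0.05 before adjustment was found for 34 of the 91, against 13.3% of all genes tested. The log2 fold change was below 0 for 77 of 91, against 49.0% of all genes, with a median of −1.13 against 0.01 for all genes. Levels of Δchat and WT did not overlap for 13 of 91, all lower with Δchat, while of all genes 3.27% were lower and 3.98% higher without overlap. DESeq2 called 17 of the 91, 1 higher and 16 lower, against 0.935% and 1.2% of all genes.

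Igkv14-111, Igkv6-15 and Igkv3-7 were among the Igkv genes whose strains did not overlap in colon. Igkv14-111 was 255.7, 2028, 935 and 521 CPM with WT bacteria and 26.3, 55.6, 230.2 and 118 CPM with Δchat bacteria (log2 fold change −3.09, SE 0.875, edgeR adjusted p = 0.313). Igkv6-15 was 178 to 839 CPM in colon WT and 83.3 to 132 in colon Δchat (−1.78, SE 0.478, adjusted p = 0.313). Igkv3-7, singled out after its values were seen, was 112.6, 154, 32.3 and 34.8 CPM with WT and 1.9, 6.5, 9.9 and 5.0 CPM with Δchat (−3.80, SE 0.724, adjusted p = 0.208), and it is 96.7% identical to Igkv3-12. The log2 fold change of Igkv14-111 was −2.38 without colon WT mouse 2 and −3.81 without colon Δchat mouse 3, and that of Igkv6-15 was −1.10 without colon WT mouse 2. The 2 leading genes did not separate the strains. Igkv1-110 was 764 to 1932 CPM with WT and 409 to 781 with Δchat in colon, and Igkv8-30 297 to 2507 and 69.6 to 965 CPM. Igkv4-86, also singled out afterwards, went the other way, with 45.1 to 69.2 CPM for WT and 56.7 to 192 CPM for Δchat, which overlapped (log2 fold change 1.25, SE 0.337, adjusted p = 0.313).

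In ileum no light chain gene passed the edgeR test for the strain either, among 99 tested, against 3 of 14496 genes called lower in the table (0.0207%) and none called higher. A p under 0.05 before adjustment was found for 12 of the 99, against 10.9% of all genes tested. The log2 fold change was below 0 for 64 of 99, against 46.8% of all genes, with a median of −0.28 against 0.01 for all genes. Levels did not overlap for 9 of 99, all lower with Δchat, while of all genes 4.1% were lower and 3.24% higher without overlap. Of the 91 members tested in both tissues, 5 were lower without overlap in both, against 0.542% of all genes: Igkc, Iglc2, Iglv2, Igkv14-111 and Igkv3-7. DESeq2 called 8 of the 99, all lower, against 1.68% of all genes called lower and 0.904% called higher.

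Igkv1-135 had the smallest p of the Igkv genes in ileum. It was 952, 799.8, 383 and 1315 CPM in ileum WT and 173, 114, 80.0 and 159 CPM in ileum Δchat (log2 fold change −2.74, SE 0.399, edgeR adjusted p = 0.0794). It was called by DESeq2 (adjusted p = 2.96e-11) and, without ileum Δchat mouse 3, by edgeR (adjusted p = 0.0444). Without that library 214 of all genes were called lower (1.47%) and 33 higher (0.226%), against 3 lower and 0 higher with it, and 2 of 101 light chain genes were called. In colon its level was 55.9 to 299 CPM with WT and 75.2 to 267 CPM with Δchat, and the groups interleaved. Igkv1-117 was 996 to 3096 CPM in ileum WT and 174 to 595 in ileum Δchat (−1.89, SE 0.4996, adjusted p = 0.248), Igkv5-48 414 to 1110 and 106 to 322 CPM (−1.77, SE 0.470, adjusted p = 0.251) and Igkv10-96 781 to 1866 and 498 to 764 CPM (−0.89, SE 0.284, adjusted p = 0.312). Other leading genes overlapped between the strains in ileum, in either direction. Igkv6-15 had a log2 fold change of 0.09, Igkv6-23 of 0.24 and Igkv8-27 of 0.27, and Igkv1-110 of −0.71, Igkv8-30 of −0.74, Igkv2-137 of −0.90 and Igkv5-43 of −0.95, with adjusted p between 0.503 and 0.959.

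The strain effect was not shown to differ between tissues for any light chain gene. None of 102 passed the edgeR interaction test, against 9 of 15198 genes (0.0592%) called in the negative direction and none in the positive, and 12 had a p under 0.05 before adjustment, against 7.72% of all genes. The log2 interaction, ileum minus colon, was above 0 for 77 of 102, against 8037 of 15198 genes. Its median was 0.79, against 0.02 for all genes. Igkv1-135 had the smallest p, with an interaction of −2.57 in log2 (SE 0.725, adjusted p = 0.510). With the mouse as a block it was the 1 member called by edgeR (adjusted p = 0.0124), against 0.0197% of all genes called in that direction. DESeq2, without the block, called 1 member (Igkv1-135, adjusted p = 0.0266), against 0.329% of all genes in the negative and 0.0526% in the positive direction.

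Between tissues most light chain genes had higher values in ileum with either strain. With WT bacteria 15 of 102 tested genes were called higher in ileum and none lower by edgeR, against 13.7% and 15.1% of all genes, with a median log2 fold change of 1.06 against −0.04 for all genes. With Δchat bacteria 21 of 102 were called higher and none lower, against 8.31% and 5.03% of all genes, and 100 of 102 had a log2 fold change above 0 (median 1.66 against −0.02 for all genes), while 47.2% of all genes did. With WT 82 of 102 were above 0, against 45.8% of all genes. A p under 0.05 before adjustment was found for 30 of 102 with WT and 43 of 102 with Δchat, against 40.9% and 28.7% of all genes. With the mouse as a block, the counts were 27 with WT and 32 with Δchat, all higher, against 12.7% and 7.73% of all genes. DESeq2 called 26 higher and 1 lower with WT, against 16.5% and 16.2% of all genes, and 36 higher and none lower with Δchat, against 10.4% and 7.82%. The calls with Δchat fell to 13 of 105 without the colon library of Δchat mouse 4. Of all 15386 genes tested there, 1081 were called higher and 647 lower. Both strains shared 6 called genes, which is 40% of the 15 and 28.6% of the 21: Igkc, Igkv1-110, Igkv3-12, Igkv4-55, Igkv4-70 and Igkv8-16. Over all genes called higher in ileum, the shared calls were 47.1% of those with WT and 77.5% of those with Δchat.

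**Figure D5:**
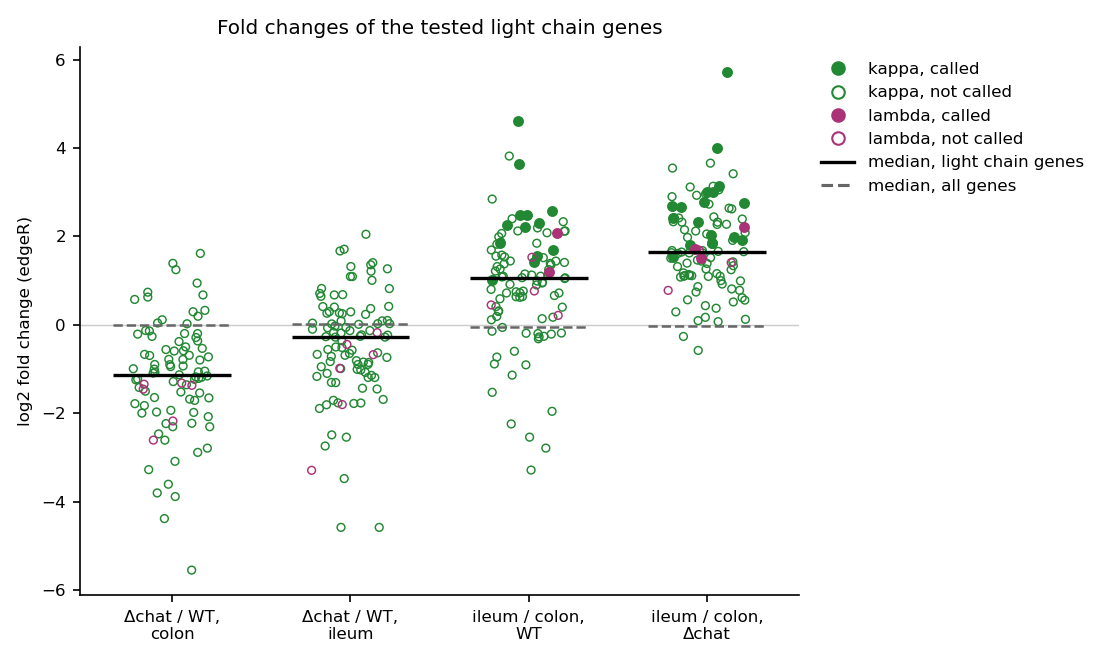
Log2 fold change (vertical axis) of every tested light chain gene in the 2 strain comparisons (Δchat over WT) and the 2 tissue comparisons (ileum over colon). Each point is a gene, filled if its edgeR adjusted p was under 0.05, black lines are the medians of light chain genes and dashed lines those of all genes. No point is filled for the strain, and the black lines lie at −1.13 and −0.28 for the strain and at 1.06 and 1.66 for the tissue.

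Igkv1-110 went from 764 to 1932 CPM in colon WT to 2194 to 6447 CPM in ileum WT (log2 fold change 1.69, SE 0.366, edgeR adjusted p = 0.0049). With Δchat it went from 409 to 781 CPM in colon to 1839 to 3416 CPM in ileum (1.91, SE 0.368, adjusted p = 0.0041). Igkv8-16 was nearly absent in colon, with 1.7 to 5.9 CPM for WT and 0.4 to 0.7 CPM for Δchat. In ileum it was 272, 44.1, 25.8 and 8.8 CPM with WT and 63.0, 23.3, 2.9 and 21.6 CPM with Δchat, so that its log2 fold changes of 4.61 (adjusted p = 0.0070) and 5.72 (adjusted p = 0.0080) rest on levels that varied widely between mice. They were 2.90 without ileum WT mouse 1 and 4.93 without ileum Δchat mouse 1, and remained called. Igkv4-70 rose by 2.21 with WT and 2.02 with Δchat in log2 (adjusted p = 0.0090 and 0.0209). With WT alone, Igkv1-135 rose by 2.31 (adjusted p = 0.0069), whereas with Δchat its log2 fold change was −0.26 (adjusted p = 0.771). With Δchat, Igkv4-61 rose by 3.14 (SE 0.511, adjusted p = 0.0016) and Igkv4-55 by 2.76 (SE 0.449, adjusted p = 0.0016).

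The lambda genes called were others with WT than with Δchat. With WT, Iglc2 rose by 1.21 in log2 (SE 0.281, edgeR adjusted p = 0.0071) and Iglv2 by 2.07 (SE 0.708, adjusted p = 0.0422) from colon to ileum. With Δchat, Iglv1 rose by 1.73 (SE 0.357, adjusted p = 0.0062), Iglc1 by 1.52 (SE 0.409, adjusted p = 0.0242) and Iglc3 by 2.21 (SE 0.628, adjusted p = 0.0329). The other lambda values were not called: with WT, Iglv1 had 0.77, Iglc1 0.21 and Iglc3 1.53, and with Δchat, Iglv2 had 1.41 and Iglc2 0.78. No interaction of a lambda gene passed the test (smallest adjusted p = 0.629, for Iglc1), so the strains were not shown to differ in these tissue changes. With the mouse as a block the calls of Iglv2 (adjusted p = 0.0895) and Iglc3 (adjusted p = 0.0585) were lost. The call of Iglv2 with WT was lost without any one of colon WT mice 1 to 4, ileum WT mice 2, 3 and 4 or ileum Δchat mouse 4, and without a filter on low counts (adjusted p between 0.0503 and 0.0984). The call of Iglc1 was lost without colon Δchat mouse 2, 3 or 4 or ileum Δchat mouse 3 and with the epithelial covariate. That of Iglc3 was lost without colon Δchat mouse 1, 3 or 4 or ileum Δchat mouse 1 or 4 and without a filter on low counts, with adjusted p up to 0.082.

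Other genes of antibody assembly were read from a list of 44 genes arranged by role. For the strain, none of 37 tested in colon and none of 38 in ileum was called by edgeR, with medians of −0.49 and −0.21 in log2. Over the list 30 of 37 values were below 0 in colon and 22 of 38 in ileum, against 49.0% and 46.8% of all genes. The list's heavy chain constant genes had 7 of 8 values below 0 in colon and 5 of 8 in ileum. The 9 tested folding proteins of the endoplasmic reticulum, which help new chains to fold, had 8 of 9 below 0 in colon and 9 of 9 in ileum. Other roles went the other way in ileum. Of 14 transcription factors 10 were below 0 in colon and 10 above 0 in ileum. The receptor partners Cd79a and Cd79b were both below 0 in colon and above 0 in ileum. Derl3, which takes part in clearing misfolded proteins, had −1.05 in colon and −0.41 in ileum (adjusted p = 0.168 and 0.518). The recombination genes were at the floor: Rag2 held no count, and Rag1, its partner in joining the segments, at most 0.97 CPM.

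For the tissue, 12 of 38 were called higher and 10 lower in ileum with WT, and 10 higher and 1 lower with Δchat. Of all genes 13.7% were called higher and 15.1% lower with WT, and 8.31% and 5.03% with Δchat. Prdm1, the factor that drives plasma cell fate, rose by 1.13 and 0.97 (adjusted p = 1.5e-05 and 9.2e-05 with WT and Δchat), and Xbp1, which expands the secretory machinery, by 0.79 with either strain (adjusted p = 0.0011 and 0.0015). Igha, the constant region of IgA, rose by 1.12 and 1.74 and Jchain, which links IgA into polymers, by 0.86 and 1.48. Of the folding proteins 9 of 9 had values above 0 with either strain, and 7 were called higher with WT and 5 with Δchat. Members known from B cells before they become plasma cells fell with WT: Ighd by 2.43, Ighm by 1.22, the receptor partner Cd79a by 1.48 and the early B cell factor Ebf1 by 1.25 in log2 (adjusted p between 0.0014 and 0.0106). With Δchat the only call in that direction was Ebf1, which fell by 0.77 (adjusted p = 0.0287). Since 6 genes stand both in this list and among the 12 plasma cell markers, the lists are not independent.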

How the data were processed

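RNA-seq of lamina propria cells from colon and ileum of 8 mice gave 16 libraries. The authors deposited estimated counts per gene from Salmon 1.4.0 after trimming with cutadapt 5.0, on GRCm39, per the submitters' processing notes. Salmon divides reads of near-identical genes by a model, and the labels name no strand-marking step. The estimated counts were rounded and tested with edgeR 4.0.16 in R 4.3.3 (filterByExpr, TMM, robust quasi-likelihood) over all genes, with Benjamini-Hochberg adjustment and a threshold of 0.05. Strains were compared in 8 libraries per tissue, and tissues and the interaction in 1 fit of 16, with no term for the mouse. Every adjusted p of a single gene is from this edgeR test unless DESeq2 (1.42.0) is named. Measures per library were tested by exact two-sided permutation. The edgeR fits for the strain and the permutation test of 4 against 4 were tested on simulated data. The fits over 16 libraries and those of DESeq2 were not.

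Alternatives were DESeq2, other scalings and filters, an epithelial covariate, a replicate block and leaving out each library. Symbols came from the reference table by Ensembl identifier, and sequences from GENCODE M21 (GRCm38) by the same identifier. No coordinates are given, because the builds differ. Named genes were the constant, joining and Iglv genes, the 12 Igkv genes of highest mean CPM, up to 6 called genes per comparison and direction, and each library's leading Igkv gene. Members and lists were chosen with earlier results of these data known. Colon and ileum of a mouse were paired through the design and the library names. Deviations from group means correlated between them at −0.18 to 0.274 over all genes and at 0.295 to 0.551 over light chain genes. Of the 8 colon libraries, 3 had deviations that correlated best with the ileum of their own number. Numbers shared by WT and Δchat mice mark no pair.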

Additional observations from a re-analysis of the deposited data

Results flagged for a closer look

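In 8 of the 132 sets of 4 libraries examined, for 25 genes and 8 measures, 1 library lay far from the other 3 by Dixon's criterion. Chance alone gives about 1 in 20. Iglv2 reached 51.6 CPM in the colon of Δchat mouse 2, where the next library had 9.39 CPM. Igkv8-16 reached 271.7 CPM in the ileum of WT mouse 1 (next 44.1 CPM), Igkv5-48 1109.7 CPM in the ileum of WT mouse 2 (next 507 CPM), Igkv4-55 271.04 CPM in the ileum of Δchat mouse 1 (next 102.2 CPM) and Igkv4-86 327 CPM in the ileum of Δchat mouse 4 (next 101.1 CPM). In WT mouse 4, Igkv8-30 reached 2507 CPM in colon (next 601 CPM), and Igkv8-27 reached 450.4 CPM in colon (next 63.2 CPM) and 1189 CPM in ileum (next 153 CPM).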

How the results depend on the processing

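Calls for the strain depended on the tool. In colon, 0 light chain genes were called by edgeR, 17 by DESeq2 and 1 with an epithelial covariate, and 0 to 1 when a library was left out (1 without colon WT mouse 4 or colon Δchat mouse 3). With the covariate 1 of 14660 genes was called higher and 1 lower. Without colon WT mouse 4 it was 1 higher and 2 lower of 14856, and without colon Δchat mouse 3 it was 1 and 1 of 14818. In ileum, 0 became 8 with DESeq2, 1 in the fit over 16 libraries and 0 to 2 without a library (2 of 101 without ileum Δchat mouse 3, a fit that called 1.47% of all genes lower and 0.226% higher). The fit over 16 libraries called 32 of 15198 genes lower and 10 higher for the strain in ileum. For the tissue with WT, 15 became 27 with DESeq2, 27 with the replicate block, 12 of 133 without a filter and 10 to 20 without a library (10 of 104 without colon WT mouse 1). Of all genes 1881 of 22434 were called higher and 1877 lower without a filter. Without colon WT mouse 1, 1493 of 15396 were called higher and 1113 lower. In both fits the share called higher was similar for light chain genes and all genes. With Δchat, 21 became 36 with DESeq2, 32 with the replicate block, 13 of 133 without a filter and 13 to 22 without a library. Without a filter 1094 of 22434 genes were called higher and 649 lower. The interaction gave 1 with DESeq2 and 1 with the block. The cause was not tested.

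Keeping the mouse as a block left the tissue differences at 2.22 (light chain), 2.11 (kappa) and 0.116 (lambda) percentage points. By exact sign flips each had the smallest p that 8 mice allow, 0.0078, and an adjusted p of 0.0833. With the number shared by WT and Δchat mice as a block, 0 light chain genes were called for the strain in either tissue, and deviations of same-numbered libraries correlated at −0.095 to 0.335 in colon and −0.269 to 0.013 in ileum. Among the genes and comparisons followed through the alternatives, the block changed no call other than those of Iglv2, Iglc3 and Igkv1-135. The strain difference in the share of the leading Igkv gene in colon turned to −2.55 for the 5 leading genes. Leaving out a library turned the sign of differences that had passed no test. In the interaction the ranges were −0.447 to 0.148 for the light chain share, −0.432 to 0.136 for kappa, −0.0407 to 0.0123 for lambda, −0.839 to 1.202 for the lambda percentage and −0.05272 to 0.00489 for the log2 light to heavy ratio. Between tissues they were −0.753 to 0.141 for the lambda percentage, −0.868 to 1.26 for the effective number and −0.01406 to 0.02262 for the log2 Igkv to Igkc ratio. For the strain in colon they were −1.57 to 0.2805 for the lambda percentage, −2.17 to 2.097 for the effective number and −0.02789 to 0.02828 for the log2 light to heavy ratio. For the strain in ileum they were −0.06998 to 0.00315 for that ratio and −2.15 to 0.527 for the leading share. No single gene changed sign in the comparisons in which it was followed through the alternatives. Other named values, some of them near 0, were not followed.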

Other observations

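The log2 ratio of summed Iglv to Iglc counts had means of −0.17 with WT and −0.29 with Δchat bacteria in colon, and of 0.02 and −0.05 in ileum. It was higher in ileum than in colon in 8 of 8 mice. This ratio was looked at after its values were seen and was not tested. Among Igkv subgroups, Igkv1 held 16.3 to 39.5% of Igkv counts over the 16 libraries, with the highest value in the ileum of WT mouse 2.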
